A study of Mus musculus with 4 samples.

Results

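A set of cytokine signalling genes was examined by name in macrophages of mice with a myeloid deletion of Dnmt1: the Janus kinases Jak1, Jak2 and Tyk2, the transcription factors Stat2, Stat3, Stat5a and Stat6, and the feedback inhibitors Socs1 and Socs3. They are 9 of the 13834 genes listed, and all 9 passed the filter on low counts, which left 12542 genes for testing. The rule that defines the set uses gene names and no measured value, although the set was proposed with earlier results of these data known. Socs1 was included because other work describes it as silenced by Dnmt1 in macrophages.

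In this pathway a cytokine draws its receptor chains together, and the Janus kinases bound to those chains phosphorylate each other and the receptor. STAT proteins dock there, are phosphorylated, pair up and enter the nucleus, where they switch on target genes. Among those targets are the SOCS genes, whose proteins bind kinases or receptors and shut the signal down. In macrophages, type I interferons act through STAT2 and its partners, interleukin-10 and interleukin-6 through STAT3, colony-stimulating factors through STAT5, and interleukin-4 and interleukin-13 through STAT6.

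RNA was sequenced from peritoneal macrophages of Dnmt1fl/fl mice (n = 2) and of Dnmt1KO mice (n = 2). Mice of both genotypes were 10 weeks old, carried floxed alleles of Dnmt1, the maintenance DNA methyltransferase, and had received thioglycolate broth in the abdominal cavity 3 days before harvest, with no other treatment named. Dnmt1KO mice in addition expressed Cre under the LysM promoter, which is active in macrophages and neutrophils, so other cells of the lavage keep the gene. Dnmt1fl/fl samples are labelled wt, whether those mice carried Cre is not stated, and sex was not recorded. The labels do not say that replicates came from separate animals, so p-values measure the spread between these samples, which may be technical.

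Totals ran from 20228071 to 24198943 counts per sample. Values are given in CPM, which are counts relative to the size of the library, after TMM scaling, a correction for library composition. Dnmt1 was at 86.6 and 67.0 CPM in Dnmt1fl/fl replicates 1 and 2, and at 37.0 and 42.7 CPM in Dnmt1KO replicates 1 and 2. Its log2 fold change was -0.95 (SE 0.24), and the adjusted p by edgeR's quasi-likelihood test was 1.00, so the deleted gene itself did not pass with all 4 samples. Without Dnmt1KO replicate 2 its log2 fold change was -1.05, with an adjusted p of 0.02 by edgeR in a fit where 8.32% of all genes passed. Macrophage markers (Adgre1, Csf1r, Cd68, Itgam, Mertk, Fcgr1 and Cd14) were all measured and together reached 5741 to 6555 CPM in every sample. Dnmt1KO replicate 1 stood apart in markers of other cells. Its neutrophil markers summed to 612 CPM against 37.0 to 129 CPM in the other samples, its B cell markers to 130 CPM against 314 to 514 CPM, and its mesothelial and fibroblast markers to 139 CPM against 33.1 to 70.9 CPM. In bulk RNA, fewer cells of a type and less RNA per cell cannot be told apart.

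Promoters were searched for the letters that STAT dimers and interferon factors bind, since Socs1, Socs3 and Stat2 are textbook targets of the pathway. The motifs were the GAS element TTCNNNGAA, which reads the same on both strands, and the core GAAANNGAA of the interferon-stimulated response element (ISRE), read on both strands. RefSeq windows of 300 bases around the transcription start (GRCm38.p6) covered all 9 genes. Among 32851 such windows, 8.3% held a GAS match and 8.56% an ISRE core. The windows of Socs1, Stat2 and Socs3 were the ones with a match, and their upstream bases follow, with matches in capitals. For Socs1, at chr16:10785537-10785786 on the minus strand, the capitals are 2 overlapping ISRE cores, GAAAGAGAA and GAAACCGAA.
Socs1: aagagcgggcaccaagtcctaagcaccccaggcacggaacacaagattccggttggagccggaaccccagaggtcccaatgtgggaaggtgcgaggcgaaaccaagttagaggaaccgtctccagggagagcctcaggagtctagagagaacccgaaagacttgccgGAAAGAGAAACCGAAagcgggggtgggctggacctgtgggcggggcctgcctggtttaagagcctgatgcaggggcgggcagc
For Stat2, at chr10:128270248-128270497 on the plus strand, the capitals are 1 ISRE core read on the opposite strand.
Stat2: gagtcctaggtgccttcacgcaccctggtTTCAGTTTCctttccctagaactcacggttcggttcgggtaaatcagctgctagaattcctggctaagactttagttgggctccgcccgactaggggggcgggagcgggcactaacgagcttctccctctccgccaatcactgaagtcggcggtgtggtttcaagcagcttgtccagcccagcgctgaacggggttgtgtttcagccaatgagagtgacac
For Socs3, at chr11:117969452-117969616 on the minus strand, the stretch outside annotated exons is given, and its capitals are 1 GAS match.
Socs3: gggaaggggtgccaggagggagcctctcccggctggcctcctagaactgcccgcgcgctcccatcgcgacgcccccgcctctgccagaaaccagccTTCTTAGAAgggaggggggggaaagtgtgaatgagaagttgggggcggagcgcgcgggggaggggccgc
A match describes these letters and not a bound site. Dnmt1 copies methylation at CG dinucleotides, of which the same windows held a median of 7 over all promoters. Socs1 held 18 CG and Stat2 22, more than 70.3% and 76.9% of all promoters. Socs3 held 31 and Jak2 44, more than 89.4% and 97.8% of them. Jak1 held 29, 1 of the 2 Stat5a windows 27, Tyk2 23 and Stat3 15. Stat6, with 8 CG, and the other Stat5a window, with 5, lay near the median. Methylation itself was not measured in these data.

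The comparison of Dnmt1KO with Dnmt1fl/fl macrophages asks whether loss of Dnmt1 goes with altered transcript levels of these genes. None of the 9 passed edgeR's quasi-likelihood test after Benjamini-Hochberg adjustment, and none had an unadjusted p under 0.05. Over all genes tested, 0% passed the adjusted threshold, which DESeq2 passed for 1 gene, and 0.279% had an unadjusted p under 0.05. The test called few genes of any kind, so the absence of calls is not particular to the 9. In 7 of the 9 genes the log2 fold change was below 0, against 49.1% of all genes, a background share that was 60.7% with library totals alone. That number of genes was 5 with a correction for gene length, in a fit with 41.3% of all genes below 0. Without Dnmt1KO replicate 1 it was 4, in a fit with 50.4% of all genes below 0. In Jak2 and Stat3 the genotypes did not overlap, with Jak2 lower and Stat3 higher in both Dnmt1KO samples, against 16.7% of all genes in either direction, 8.56% lower and 8.14% higher. Scaled by library totals alone, the genotypes overlapped in all 9 genes. The 16.7% of all genes holds for TMM scaling, and the share with library totals was not counted. For any single gene, the smallest p that exact permutation of 2 against 2 samples allows is 0.333 (two-sided).

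**Figure D1:**
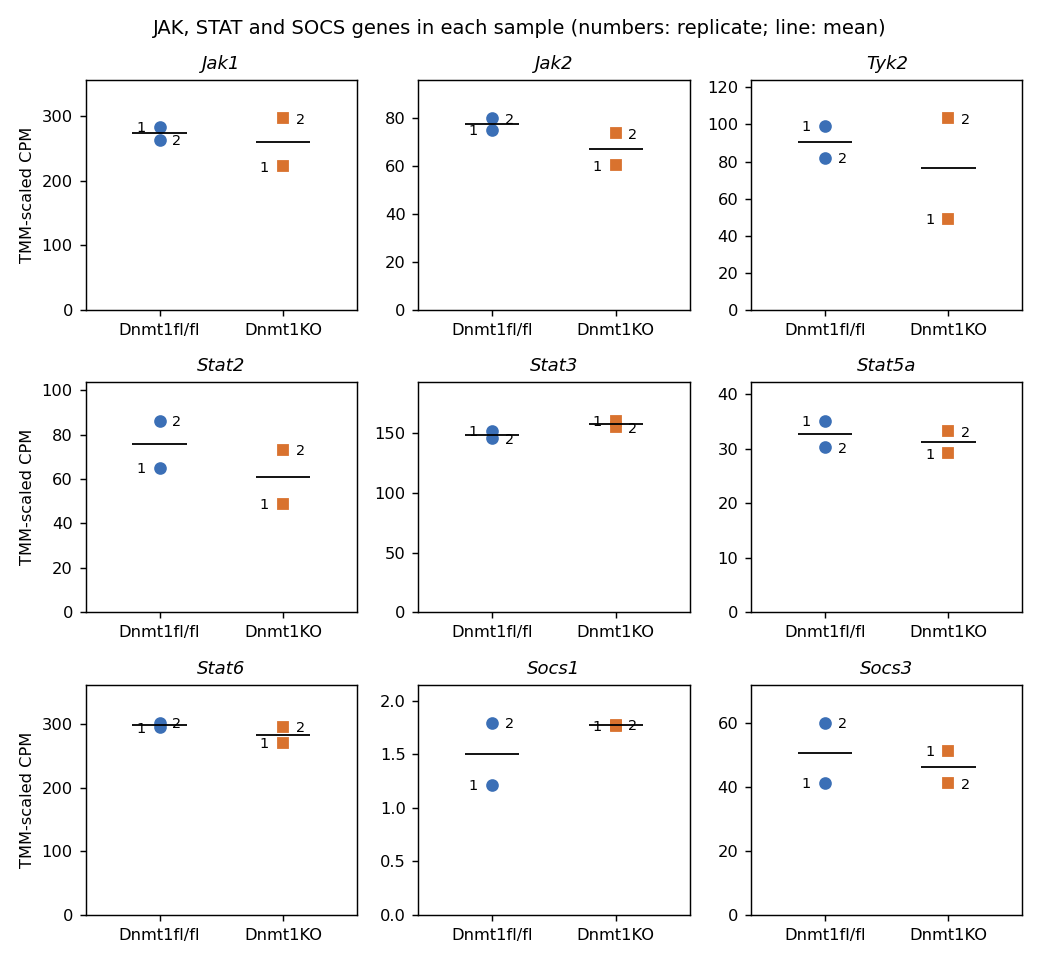
CPM after TMM scaling of each of the 9 genes, in 1 panel per gene with its own axis from 0, for Dnmt1fl/fl and Dnmt1KO samples; points are samples numbered by replicate and horizontal lines are means. In the panels of Jak1, Jak2, Tyk2, Stat2, Stat5a and Stat6, Dnmt1KO replicate 1 is the lowest of the 4 points.

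Jak1 serves the receptors of interferons and of the interleukin-6, interleukin-10 and interleukin-4 families, and was the kinase with the highest level. It was at 284 and 263 CPM in Dnmt1fl/fl replicates 1 and 2, and at 223 and 297 CPM in Dnmt1KO replicates 1 and 2. The Dnmt1KO samples were the lowest and the highest of the 4, so the genotypes overlapped. Means were 273 ± 14.5 CPM and 260 ± 52.7 CPM (SD, n = 2 each), and the log2 fold change was -0.07 (SE 0.25, 95% confidence interval -0.69 to 0.54, adjusted p = 1.00 by edgeR's quasi-likelihood test). Jak1 is read from the minus strand of chromosome 4 (positions 101152367 to 101265282, GRCm38). Its log2 fold change was 0.12 without Dnmt1KO replicate 1 and -0.30 without Dnmt1KO replicate 2.

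Jak2 transmits signals of interferon-gamma, of growth hormone and of GM-CSF. It was at 74.98 and 79.9 CPM in Dnmt1fl/fl and at 60.2 and 73.5 CPM in Dnmt1KO macrophages. Both Dnmt1KO samples lay below both Dnmt1fl/fl samples, and the nearest pair, 74.98 and 73.5 CPM, almost met. The log2 fold change was -0.21 (SE 0.22, 95% confidence interval -0.77 to 0.34, adjusted p = 1.00 by edgeR's quasi-likelihood test). It kept its sign in every alternative fit, between -0.36 and -0.08. Jak2 lies on the plus strand of chromosome 19, from 29251828 to 29313080.

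Tyk2 pairs with Jak1 on the type I interferon and interleukin-10 receptors. Its values were 99.1 and 82.0 CPM in Dnmt1fl/fl and 49.2 and 103 CPM in Dnmt1KO macrophages. The Dnmt1KO samples were the lowest and the highest of all 4 and differed from each other by 1.07 on the log2 scale, so that 80.1% of genes had a smaller spread between replicates. The means were 90.6 ± 12.1 CPM in Dnmt1fl/fl and 76.3 ± 38.3 CPM in Dnmt1KO macrophages (SD, n = 2 each). The fitted log2 fold change was -0.25 (SE 0.39, 95% confidence interval -1.20 to 0.71, adjusted p = 1.00 by edgeR's quasi-likelihood test). Without Dnmt1KO replicate 1 it was 0.19. Without Dnmt1KO replicate 2 it was -0.88 with an adjusted p of 0.0321 by the same edgeR test, in a fit where the lone Dnmt1KO sample is assumed to vary like the Dnmt1fl/fl group and where 8.32% of all genes passed. Tyk2 lies on chromosome 9 (21104068 to 21131243, minus strand), 144180 bases from Dnmt1. It shares 554 exonic bases with an antisense gene, 1700084C06Rik, whose reads cannot be told apart without strand.

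Stat2 forms the interferon-stimulated factor ISGF3 together with IRF9. It was at 65.0 and 86.3 CPM in Dnmt1fl/fl and at 48.9 and 73.0 CPM in Dnmt1KO macrophages, with the samples of the 2 genotypes interleaved. Replicate 2 was the higher sample in both genotypes. This gave a log2 fold change of -0.31 (SE 0.29, 95% confidence interval -1.04 to 0.42, adjusted p = 1.00 by edgeR's quasi-likelihood test), the lowest of the 9 genes. It was -0.05 without Dnmt1KO replicate 1 and -0.63 without Dnmt1KO replicate 2. Stat2 is on the plus strand of chromosome 10 (128270559 to 128292849).

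Stat3 carries the anti-inflammatory signal of interleukin-10. Its levels were 152 and 146 CPM in Dnmt1fl/fl and 161 and 155 CPM in Dnmt1KO macrophages. Both Dnmt1KO samples were above both Dnmt1fl/fl samples, by a margin of a few CPM. Stat3 was the steadiest of the 9 genes between replicates, with a pooled SD of 0.04 on the log2 scale, and 1.92% of genes had a smaller one. Means were 149 ± 4.34 CPM and 158 ± 3.98 CPM (SD, n = 2 each). The log2 fold change was 0.08 (SE 0.21, 95% confidence interval -0.44 to 0.60, adjusted p = 1.00 by edgeR's quasi-likelihood test), where edgeR draws each gene's variance towards that of genes at like levels. Fits to all 4 samples put it between 0.01 and 0.23, the highest value being reached with a correction for gene length.

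Stat5a responds to GM-CSF and interleukin-3. It was at 35.1 and 30.2 CPM in Dnmt1fl/fl and at 29.1 and 33.1 CPM in Dnmt1KO macrophages, so the genotypes were interleaved. The fitted log2 fold change was -0.07 (SE 0.21, 95% confidence interval -0.60 to 0.46, adjusted p = 1.00 by edgeR's quasi-likelihood test), and it was 0.03 with a correction for gene length. Stat5a and Stat3 lie tail to tail on chromosome 11, at 100859351 to 100885169 on the plus strand and at 100885098 to 100939540 on the minus strand, and their exons overlap by 72 bases. Of the 100-base stretches of Stat5a, 3.44% occur in another gene, mostly in its paralog Stat5b, 8627 bases away.

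Stat6 drives the alternative activation of macrophages by interleukin-4 and interleukin-13. It was at 294 and 301 CPM in Dnmt1fl/fl and at 271 and 295 CPM in Dnmt1KO macrophages. Dnmt1KO replicate 1 was the lowest, and the other 3 samples lay within a few CPM of each other. The means were 298 ± 4.91 CPM and 283 ± 17.5 CPM (SD, n = 2 each). Its log2 fold change was -0.07 (SE 0.22, 95% confidence interval -0.61 to 0.46, adjusted p = 1.00 by edgeR's quasi-likelihood test). It was -0.014 without Dnmt1KO replicate 1, -0.14 without Dnmt1KO replicate 2 and -0.03 with a correction for gene length. Stat6 is on the plus strand of chromosome 10 (127642986 to 127660957), 609602 bases from Stat2.

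Socs1, which binds the catalytic domain of Janus kinases and restrains interferon-gamma and interleukin-4 signals, had the lowest level of the 9 genes. It was at 1.22 and 1.79 CPM in Dnmt1fl/fl and at 1.77 and 1.78 CPM in Dnmt1KO macrophages. Dnmt1fl/fl replicate 1 was low and the other 3 samples were nearly equal, with Dnmt1fl/fl replicate 2 the highest of all. These values rest on 25, 45, 35 and 42 counts, whose exact 95% Poisson intervals were 16.2 to 36.9, 32.8 to 60.2, 24.4 to 48.7 and 30.3 to 56.8 and cover counting error only. The intervals of all 4 samples overlap. The fitted log2 fold change was 0.23 (SE 0.46, 95% confidence interval -0.92 to 1.38, adjusted p = 1.00 by edgeR's quasi-likelihood test), which as a ratio is 1.17 with an interval of 0.528 to 2.61. It was -0.02 without Dnmt1fl/fl replicate 1 and 0.54 without Dnmt1fl/fl replicate 2. Socs1 lies on the minus strand of chromosome 16, from 10782240 to 10785536.

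Socs3 blocks gp130 receptors and with them the STAT3 signal of interleukin-6. Its values were 41.4 and 60.0 CPM in Dnmt1fl/fl and 51.3 and 41.2 CPM in Dnmt1KO macrophages. Dnmt1fl/fl samples were the highest and the next to lowest, and the genotypes overlapped. Means were 50.7 ± 13.2 CPM and 46.2 ± 7.15 CPM (SD, n = 2 each). The log2 fold change was -0.13 (SE 0.27, 95% confidence interval -0.80 to 0.54, adjusted p = 1.00 by edgeR's quasi-likelihood test). Without Dnmt1fl/fl replicate 2 it was 0.17, and without Dnmt1KO replicate 2 it was 0.02. Unlike the kinases, Socs3 was higher in Dnmt1KO replicate 1 than in Dnmt1KO replicate 2. It lies on the minus strand of chromosome 11, from 117966079 to 117970047.

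**Figure D2:**
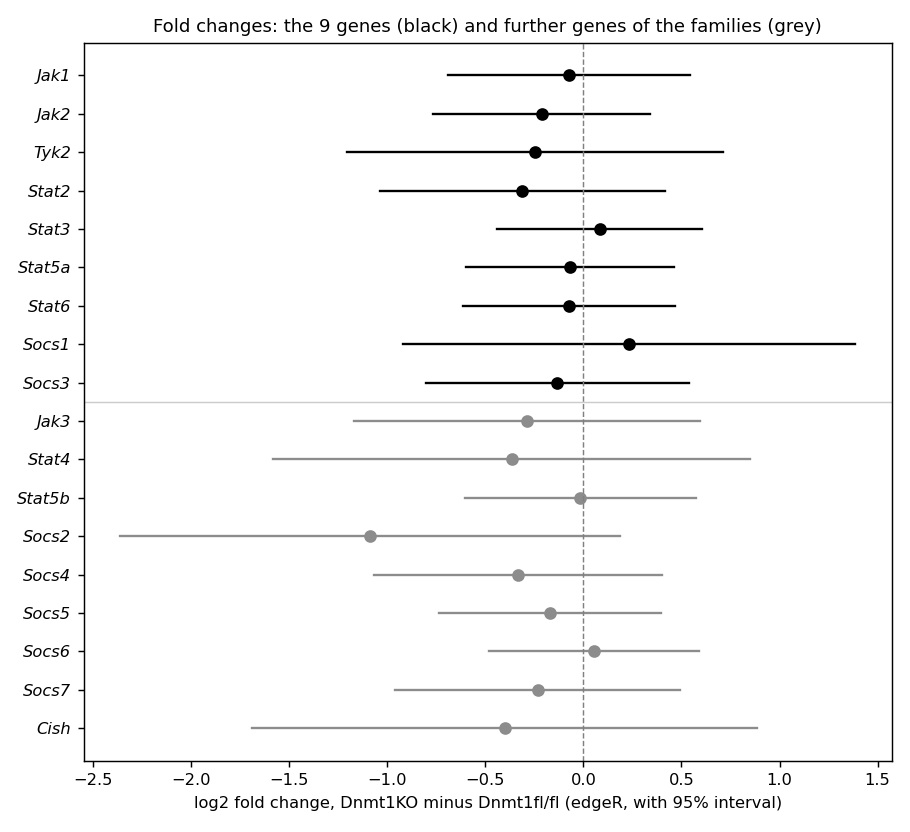
Log2 fold change of Dnmt1KO against Dnmt1fl/fl for the 9 genes (black) and 9 further genes of the families (grey), with 95% confidence intervals from edgeR's quasi-likelihood fit and a vertical line at 0. All intervals span 0, and among those in black that of Socs1, from -0.92 to 1.38, is the widest.

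Levels of different genes were compared per kilobase of exon (CPM/kb), since longer transcripts give more reads. In Dnmt1fl/fl macrophages Stat6 was the highest at 67.7 ± 1.12 CPM/kb, followed by Jak1 at 37.8 ± 2.0 CPM/kb. Both stood clear of the 5 genes that came next, as did Stat5a at 4.58 ± 0.486 CPM/kb and Socs1 at 0.518 ± 0.14 CPM/kb below them (SD, n = 2 each). Between them, the Dnmt1fl/fl means of Socs3, Stat3 and Jak2 were 17.5, 15.6 and 15.4 CPM/kb, and their sample ranges overlapped. Tyk2 and Stat2 followed at 13.2 and 12.8 CPM/kb and overlapped each other and the lower of the Socs3 samples. In Dnmt1KO macrophages the order was Stat6 (64.3 CPM/kb), Jak1 (36.0), Stat3 (16.6), Socs3 (16.0), Jak2 (13.3), Tyk2 (11.1), Stat2 (10.3), Stat5a (4.36) and Socs1 (0.61). The exchange of Socs3 and Stat3 lies within their spread. With the longest transcript as the length, the Dnmt1fl/fl order had the same first, second, eighth and ninth gene, with Stat3 at 24.7 CPM/kb above Socs3 at 19.9 CPM/kb and Jak2 at 15.4 CPM/kb below Stat2 at 17.2 CPM/kb.

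**Figure D3:**
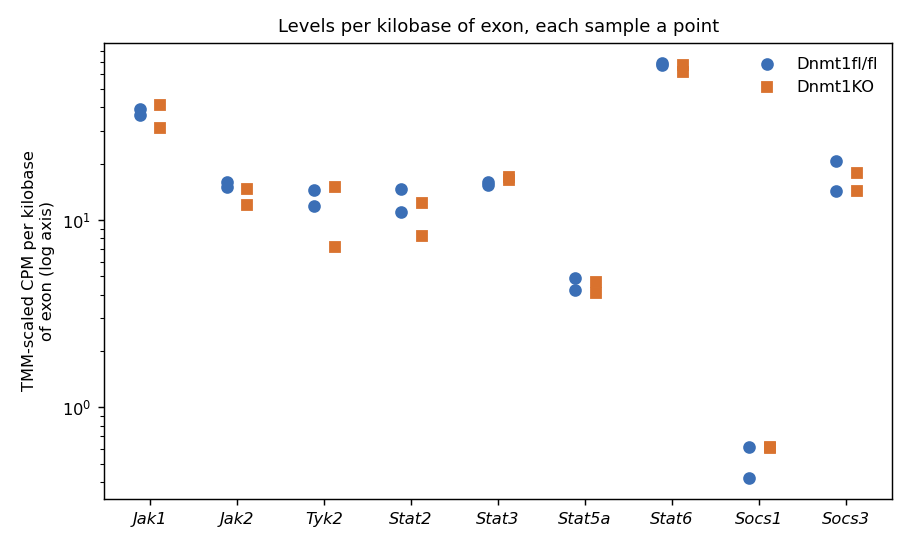
Levels of the 9 genes in CPM per kilobase of exon on a log axis, with 1 point per sample, coloured by genotype. Stat6 and Jak1 lie above the others and Socs1, under 1 CPM/kb in all 4 samples, lies below them.

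Dnmt1KO replicate 1 was the lowest of the 4 samples in 6 of the 9 genes, namely all 3 kinases, Stat2, Stat5a and Stat6, against 39.6% of all genes. In 7 of the 9 it was lower than Dnmt1KO replicate 2, with Stat3 and Socs3 as the exceptions. This is the sample in which neutrophil, mesothelial and fibroblast markers were highest and B cell markers lowest. All 7 neutrophil markers tested had their highest value in it, led by S100a9 at 320 CPM against 5.55 to 60.5 CPM in the other samples, a gene named after its values were seen. The neutrophil markers Ngp and Camp had no row in the table, and Ly6g was too low to test. All 7 B cell markers were lowest in Dnmt1KO replicate 1. T and NK cell markers, at 23.7 to 36.1 CPM, and eosinophil and mast cell markers, at 11.97 to 18.6 CPM, varied less between samples, although Dnmt1KO replicate 1 was again the lowest for the latter. Immediate early genes, a sign of handling, summed to 2548 and 2776 CPM in Dnmt1fl/fl and to 3050 and 2014 CPM in Dnmt1KO replicates 1 and 2. Across genes, the log2 difference of Dnmt1KO replicate 2 from replicate 1 went with exon length (Pearson r = 0.30 over 12380 genes, which are not independent replicates). The part of cell composition, handling and gene length in the values of the 9 genes was not tested.

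**Figure D4:**
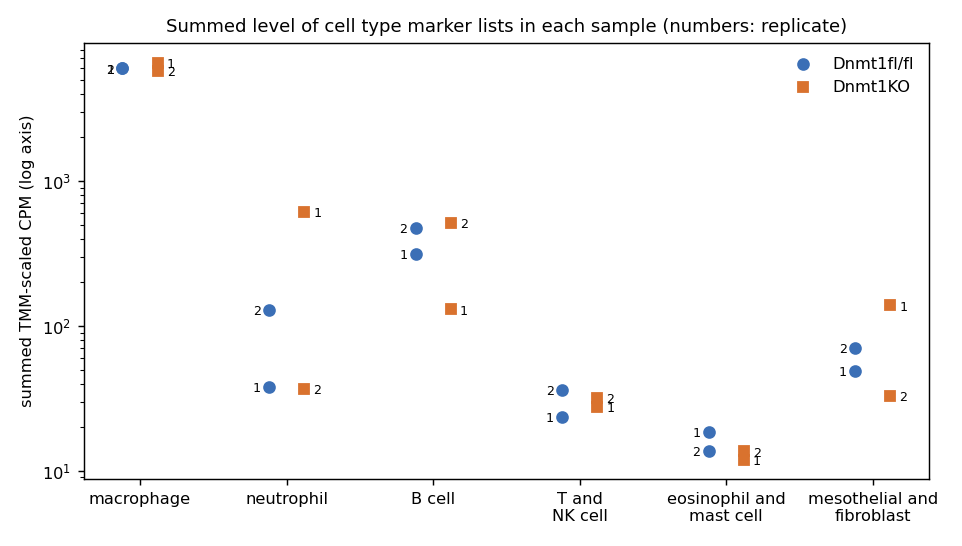
Summed CPM of marker lists in each sample on a log axis, with points numbered by replicate. Dnmt1KO replicate 1 has the highest sum for neutrophil markers (612 CPM) and the lowest for B cell markers (130 CPM), while macrophage markers reach 5741 to 6555 CPM in all samples.

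Further members of the 3 families were examined as well. Of these 9 genes, none passed edgeR's quasi-likelihood test before or after adjustment, 8 had a log2 fold change below 0, and Dnmt1KO replicate 1 was the lowest sample in 7, against 49.1% and 39.6% of all genes. Without Dnmt1KO replicate 1, Jak3, Stat4, Stat5b and Socs7 moved above 0, to 0.098, 0.088, 0.14 and 0.041. Socs6 stayed above 0, at 0.087, and 50.4% of all genes were below 0 in that fit. With all samples, the median log2 fold change of the 9 further genes was -0.29. It was -0.07 for the 9 named at the outset and 0.0046 for all genes tested. The median of those 9 was 0.019 without Dnmt1KO replicate 1 and -0.16 without Dnmt1KO replicate 2. Jak3, which serves the common gamma chain of interleukin receptors, was at 62.2 and 47.3 CPM in Dnmt1fl/fl and at 31.1 and 58.7 CPM in Dnmt1KO macrophages, a pattern with the same lowest sample as Tyk2. Stat4, the interleukin-12 factor, was at 9.45 and 17.1 CPM in Dnmt1fl/fl and at 6.41 and 14.2 CPM in Dnmt1KO macrophages. Their log2 fold changes were -0.29 (SE 0.35) and -0.37 (SE 0.49), and the genotypes overlapped in both. Stat4 shares 18.0% of its 100-base stretches with another annotated gene, so its counts are less certain. Stat5b gave 83.7 and 94.3 CPM in Dnmt1fl/fl and 77.7 and 98.5 CPM in Dnmt1KO macrophages.

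Among the further SOCS genes the genotypes did not overlap in Socs2 and Socs5, both lower in Dnmt1KO, a direction seen without overlap in 8.56% of all genes. Socs2, a STAT5 target that restrains growth hormone signals, was at 1.46 and 1.51 CPM in Dnmt1fl/fl and at 0.808 and 0.593 CPM in Dnmt1KO macrophages. Both Dnmt1KO samples were under 1 CPM, and all 4 values rest on few reads (30, 38, 16 and 14 counts). Its log2 fold change was -1.09 (SE 0.51, 95% confidence interval -2.36 to 0.19, adjusted p = 1.00 by edgeR's quasi-likelihood test), and it was the lowest value of the family genes examined. Socs5 was at 20.1 and 20.7 CPM against 16.7 and 19.6 CPM, with a log2 fold change of -0.17 (SE 0.23). Cish, the STAT5-induced founding member of the family, was at 1.17 and 1.71 CPM in Dnmt1fl/fl and at 0.909 and 1.27 CPM in Dnmt1KO macrophages. Socs4, Socs6 and Socs7 overlapped between genotypes, with log2 fold changes of -0.33 (SE 0.30), 0.05 (SE 0.21) and -0.23 (SE 0.29). Socs4 was at -0.01 without Dnmt1KO replicate 1. In the fit without Dnmt1KO replicate 2, where 8.32% of all genes passed, Socs4 was at -0.75 and Jak3 at -0.82, with adjusted p of 0.0395 and 0.0458 by edgeR.

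Upstream of the kinases, 26 of 32 listed receptor chains were tested and none had an unadjusted p under 0.05 by edgeR. Genotypes did not overlap in 7 of them, 3 higher and 4 lower in Dnmt1KO, against 8.14% and 8.56% of all genes, with a median log2 fold change over the list of -0.01. Il4ra, the chain that feeds Stat6, was at 103 and 110 CPM in Dnmt1fl/fl and at 122 and 130 CPM in Dnmt1KO macrophages, a log2 fold change of 0.24 (SE 0.21). Both Dnmt1KO samples were above both Dnmt1fl/fl samples. Ifnar2, a chain of the type I interferon receptor, was at 126 and 124 CPM against 170 and 130 CPM, where the higher Dnmt1KO value was that of replicate 1. Ifnar1, the other chain of that receptor, also had genotypes that did not overlap, in the opposite direction, at 195 and 200 CPM against 189 and 162 CPM (log2 fold change -0.17, SE 0.22), and is given for that contrast after its values were seen. Il12rb2, which partners Jak2, was at 1.75 and 1.87 CPM against 0.606 and 1.69 CPM, values that rest on few reads. Of 18 cytokine ligands, 10 were in the table and 7 were tested, and Ifnb1, Ifng and Il6 had no row. None of the 7 had an unadjusted p under 0.05 by edgeR. In 1 of them, Il12a, the genotypes did not overlap, against 16.7% of all genes. Il12a was at 0.536 and 0.598 CPM in Dnmt1fl/fl and at 0.101 and 0.339 CPM in Dnmt1KO macrophages, a log2 fold change of -1.31 (SE 0.80). The lowest of these lies under the level that 3 counts give in that library, 0.151 CPM.

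Other listed brakes on the pathway, namely phosphatases, PIAS proteins, Cbl, Sh2b3 and Usp18, were all tested. None of the 12 had an unadjusted p under 0.05 by edgeR, and the median log2 fold change was -0.07. Pias2, of the family named as protein inhibitors of activated STAT, was the 1 gene of 12 without overlap, against 16.7% of all genes. It was at 40.6 and 37.1 CPM in Dnmt1fl/fl and at 33.0 and 36.2 CPM in Dnmt1KO macrophages, a log2 fold change of -0.17 (SE 0.20).

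Downstream of the STATs, 4 lists of target genes were examined and no gene had an unadjusted p under 0.05 by edgeR. The counts without overlap that follow, 1 of 18, 2 of 13 and 1 of 9, stand beside 16.7% of all genes and are near or below it. Of 18 interferon target genes, 10 had a log2 fold change below 0 and the median was -0.05. Oas2, an antiviral enzyme, was at 55.2 and 90.8 CPM in Dnmt1fl/fl and at 21.2 and 49.0 CPM in Dnmt1KO macrophages, with a log2 fold change of -1.05 (SE 0.46). It was the gene of that list without overlap, and its replicates also differed widely within each genotype. Its log2 fold change was -0.58 without Dnmt1KO replicate 1, and -1.78 without Dnmt1KO replicate 2 with an adjusted p of 0.0074 by the edgeR test in which 8.32% of all genes passed. Of 13 STAT3 targets the median was -0.08, and the genes without overlap were Il4ra, given above, and Tnfaip3, a brake on NF-kappaB, at 93.9 and 66.7 CPM against 62.8 and 44.7 CPM. Of 9 STAT5 targets 7 were below 0, against 49.1% of all genes, with a median of -0.24. Socs2 was the gene without overlap, and this list shares Pim1, Mcl1 and Bcl2l1 with the STAT3 list and Socs2 and Cish with the family genes above. Of 13 STAT6 targets tested 4 were below 0 and 9 above, with a median of 0.14, beside the same 49.1% of all genes below 0.

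Within the STAT6 list the genotypes did not overlap in 2 of the 13 genes, Pdcd1lg2 and Ccl22, which lay in opposite directions, a count near the 16.7% of all genes without overlap. Pdcd1lg2, the checkpoint ligand PD-L2, was at 0.633 and 0.757 CPM in Dnmt1fl/fl and at 1.46 and 1.19 CPM in Dnmt1KO macrophages. Ccl22, a chemokine of alternatively activated macrophages, was at 2.44 and 2.67 CPM against 1.82 and 1.14 CPM. Their log2 fold changes were 0.92 (SE 0.52) and -0.79 (SE 0.46). Arg1, the arginase of alternatively activated macrophages, had a log2 fold change of 0.98 (SE 0.68) and was chosen after its values were seen. It was at 1208 and 1830 CPM in Dnmt1fl/fl and at 4849 and 1132 CPM in Dnmt1KO macrophages, so the higher mean came from Dnmt1KO replicate 1 and Dnmt1KO replicate 2 was the lowest sample.

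The genes with the pattern nearest to the SOCS members were sought over the 4 samples, by Euclidean distance of centred log2 CPM. For Socs1 they were Cdh23, Ect2 and Frat2, at distances of 0.02, 0.07 and 0.07, and for Socs3 they were Rassf1, Metap1 and Cyth1, at 0.02, 0.03 and 0.05. With 12542 genes and 4 samples, near matches are numerous, and this is a description.

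**Figure D5:**
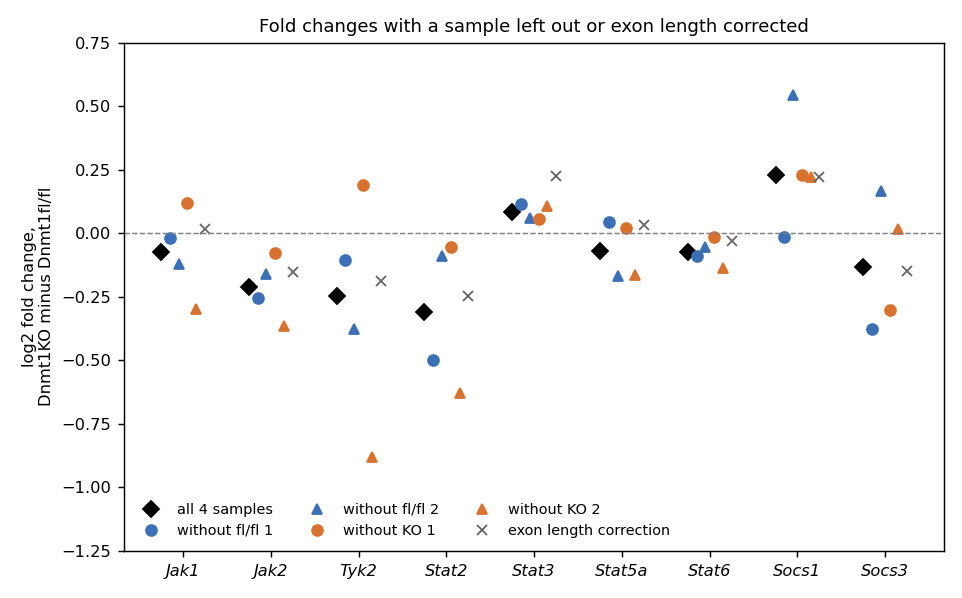
Log2 fold change of Dnmt1KO against Dnmt1fl/fl for the 9 genes with all 4 samples (diamonds), with each sample left out in turn (circles and triangles) and with a correction for exon length (crosses). Tyk2 moves from -0.88 without Dnmt1KO replicate 2 to 0.19 without Dnmt1KO replicate 1, while Stat3 lies between 0.06 and 0.11 whichever sample is left out and at 0.23 with the length correction.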

How the data were processed

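Paired-end reads of 4 samples were aligned by the authors with HISAT2 2.0.5 and counted with featureCounts 1.5.0-p3 on mm10, as the submitters' processing notes give these tools. The annotation and strand setting are not given in the sources used here. The authors deposited estimated counts per gene, not normalized, with gene symbols. Between 72.6% and 76.4% of values per sample were whole, all were above 0, and 3 of the 9 genes (Tyk2, Stat5a, Stat6) had values that were not. Genes without counts in even 1 sample are therefore not listed. A shorter table of 2749 genes repeats rows of the whole table, Jak2, Tyk2, Stat2 and Socs3 among them, and was not used further. No column of the authors' own comparisons was used.

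From the whole table, counts were rounded, filtered with filterByExpr and scaled by TMM with edgeR (version 4.0.16, under R 4.3.3). The comparison of genotypes used its two-sided quasi-likelihood test without a replicate block, with Benjamini-Hochberg adjustment over 12542 genes, and standard errors were taken from its statistic. The coefficient of variation between replicates was 28.9%. A floor of 3 counts equals 0.12 to 0.151 CPM and, like the Poisson intervals, reflects counting error alone, because duplicates made by PCR are not separate molecules. The fits were tested on simulated data.

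Other fits used DESeq2 (version 1.42.0), limma-voom (version 3.58.1), other scalings and filters, a replicate block, a loess correction (span 0.5) for gene length, and leaving out each sample. A crossed pairing was chosen after seeing the data. Members and lists were chosen with earlier results of these data known, and 3 genes of those lists are not reported here. Named genes were the 9 members, Dnmt1, further genes of the 3 families, at most 3 genes per pathway list with the largest absolute log2 fold change among those whose genotypes did not overlap, any list gene with an unadjusted p under 0.05, and the 3 nearest patterns to Socs1 and Socs3. Arg1, S100a9 and Ifnar1 were added after their values were seen. Coordinates were looked up by symbol in GENCODE M21 (GRCm38), with exon lengths for 12380 of the genes tested, and promoters from RefSeq on GRCm38.p6.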

Additional observations from a re-analysis of the deposited data

How the results depend on the processing

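The labels name no link between same-numbered replicates of the genotypes beyond the number. Across genes, same-numbered samples tended to deviate in opposite directions (correlation -0.35 over 12542 genes). With the replicate block, 34 genes had an unadjusted p under 0.05, against 35 without it, and 0 had an adjusted one. The block with the gene length correction gave 56 and 2 genes, the crossed pairing 297 and 3, and the crossed pairing with that correction 151 genes unadjusted. DESeq2 called 1 gene after adjustment, and testing without a filter on low counts gave 60 unadjusted.

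Leaving out each sample gave 0 to 1061 genes with an adjusted p under 0.05 and 43 to 3521 unadjusted, the most without Dnmt1KO replicate 2. Of the 9 genes, 0 to 1 passed the adjusted test (Tyk2, without Dnmt1KO replicate 2), 0 to 2 the unadjusted one, and 2 to 5 were higher in Dnmt1KO, against 2 with all samples and 4 in each of the 3 fits with a length correction. The fits with a length correction had 41.3% to 43.2% of all genes below 0, against 49.1% in the main fit. With library totals alone, 0 of the 9 had non-overlapping genotypes, and the share of all genes was not counted for that scaling.

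Of 144 alternative values of the 9 genes, 13 had the opposite sign, in 5 genes. With the length correction alone, with the block and with the crossed pairing, the log2 fold change was 0.017, 0.016 and 0.016 for Jak1, 0.033, 0.034 and 0.033 for Stat5a, and 0.053, 0.055 and 0.055 for Stat5b. Socs6 was at -0.015 with library totals. Over the fits that left out a sample, values ran from -0.30 to 0.12 for Jak1, -0.88 to 0.19 for Tyk2, -0.17 to 0.044 for Stat5a, -0.016 to 0.54 for Socs1 and -0.37 to 0.17 for Socs3. They ran from -0.82 to 0.098 for Jak3, -1.05 to 0.12 for Stat4, -0.20 to 0.14 for Stat5b, -0.027 to 0.15 for Socs6 and -0.57 to 0.041 for Socs7. Without a change of sign, they ran from -0.29 to -0.062 for Socs5, -0.67 to -0.095 for Cish, -0.24 to -0.099 for Pias2, -2.43 to -0.74 for Il12a, -1.57 to -0.10 for Il12rb2, 0.047 to 0.44 for Ifnar2, -0.84 to -0.31 for Tnfaip3 and -1.16 to -0.49 for Ccl22. The end nearer to 0 came without Dnmt1KO replicate 1 for Socs5, Il12a, Il12rb2 and Ifnar2, without Dnmt1KO replicate 2 for Ccl22, without Dnmt1fl/fl replicate 1 for Pias2 and Tnfaip3, and without Dnmt1fl/fl replicate 2 for Cish. The cause was not tested. Socs1, Socs2, Cish, Il12a, Il12rb2, Ccl22 and Pdcd1lg2 rest on few reads. Depth and the spread of 2 samples per genotype were not separated as limits on them.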
